A study of Mus musculus with 14 samples.

Results

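The cone photoreceptor genes described here are 10 genes of cones, the retinal cells that serve daylight and colour vision: the opsins Opn1sw and Opn1mw, the transducin subunits Gnat2 and Gngt2, the phosphodiesterase subunits Pde6c and Pde6h, the channel subunits Cnga3 and Cngb3, the arrestin Arr3 and the thyroid hormone receptor gene Thrb. They were chosen by name as genes known from cones, and all 10 were found among the 20902 genes of the deposited table. RNA of C57BL/6 mice was sequenced in 14 libraries, from embryos (embryonic day 16.5, e16.5), from pups on postnatal day 7 (P7) and from adults on day 60 (P60). Of these, 9 were made from microglia, the macrophages that live in the retina, with 3 per age, and 5 from whole retina, with 3 for e16.5 but a single one for P7 and for P60. The microglia came from Cx3cr1-GFP mice, in which green fluorescent protein (GFP) marks microglia and related myeloid cells, and were sorted as GFP-positive, CD45-positive and CCR2-negative cells. Each microglia library was a pool of 1 to 2 litters at e16.5, of 5 to 12 retinas at P7 or of 7 to 14 retinas at P60, and its RNA was amplified with a kit for small inputs. The retinas came from WT mice, were limited to central retina in the embryo, and were extracted with another kit. Tissue, sorting, genotype and kit thus differ together between microglia and whole retina and cannot be told apart.

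In a cone, light isomerises the chromophore of an opsin, the opsin activates cone transducin, and transducin releases the cone phosphodiesterase from its inhibitory gamma subunit. The fall in cyclic GMP closes the cone cyclic nucleotide-gated channel, and cone arrestin ends the signal of the opsin. Thrb encodes a nuclear receptor whose cone form is needed for medium-wavelength opsin and restrains short-wavelength opsin in the mouse retina. Microglia are not known to carry out this cascade, and the cone genes were read both in whole retina, where cones are present, and in each sorted library.

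Libraries held 8996298 to 17446905 counts in microglia and 20469100 to 24361772 in whole retina. Levels are given as counts scaled to library size (CPM) after scaling for library composition (TMM), or, where genes are compared with each other, as fragments scaled for gene length and depth (FPKM). As a partial check of the labelled cell type, 10 microglial genes summed to between 11795 and 23895 CPM in the sorted libraries. They summed to between 60.4 and 83.2 CPM in whole retina. The list includes Cx3cr1 and Ptprc, the gene of CD45, on which the cells were sorted, so part of this was fixed in advance. A list of 12 monocyte and border macrophage genes summed to 205 to 2318 CPM in the sort and 4.98 to 39.7 CPM in whole retina. The share of such cells in the sort was not tested. A count of 0 allows up to 3 counts, which is 0.107 to 0.293 CPM in these libraries, and covers counting error only.

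In whole retina, most cone genes were higher at P7 than at e16.5 and higher again at P60, but they did not move as a block. Of the 10 genes, 7 were at least 2-fold higher at P7 than at e16.5 and 0 were at least 2-fold lower, against 14.8% and 10.6% of all 20902 genes. From P7 to P60, 6 of the 10 were at least 2-fold higher and 1, Gngt2, was lower, against 8.14% and 8.42% of all genes. P7 and P60 have 1 library each, so these ratios carry no error and no test, and fewer cones or less RNA per cone cannot be told apart in whole tissue. Ratios in whole retina are on a log2 scale with 0.5 CPM added, which understates the change of low genes.

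The opsins differed in timing. Opn1sw, the short-wavelength opsin (chr6:29376671-29388468, minus strand, build GRCm38), stood at 4.74, 3.56 and 2.31 CPM in the 3 e16.5 retinas, at 139 CPM at P7 and at 605 CPM at P60. It thus had counts in every embryonic library, and the log2 ratio was 5.11 from e16.5 to P7 and 2.12 from P7 to P60. Opn1sw shares 397 of 2557 exon bases with Calu, which was at 311 to 354 CPM in the embryonic retinas. Whether the embryonic counts of Opn1sw came from the shared bases was not tested. Opn1mw, the medium-wavelength opsin (chrX:74127464-74150760, plus strand), had 0, 1 and 0 counts at e16.5, 12 counts at P7 and 2386 counts at P60. Its step therefore lay between P7 and P60, with a log2 ratio of 6.78. At P60 the short-wavelength opsin was the higher of the pair per length, at 494 FPKM against 151 FPKM.

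Both transducin subunits were present in the embryonic retina and then parted. Gnat2, the cone transducin alpha subunit (chr3:108092789-108101432, plus strand), measured 22.9, 16.4 and 18.3 CPM at e16.5, 45.2 CPM at P7 and 199 CPM at P60, higher at each later age. Gngt2, the cone transducin gamma subunit (chr11:95837216-95845734, plus strand), measured 52.4, 47.5 and 45.5 CPM at e16.5, 196 CPM at P7 and 55.4 CPM at P60. The P60 retina thus lay just above the embryonic range, and Gngt2 was the only member more than 2-fold lower at P60 than at P7, with a log2 ratio of -1.81. Its rod counterpart Gngt1 went the other way over the same interval, from 251 to 1154 CPM.

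The catalytic and inhibitory subunits of the cone phosphodiesterase had different starting points. Pde6c, the catalytic subunit (chr19:38132781-38183958, plus strand), was at 12.6, 13.9 and 12.4 CPM at e16.5, 45.8 CPM at P7 and 161 CPM at P60. Pde6h, the inhibitory gamma subunit (chr6:136923832-136968865, plus strand), was at 1.61, 1.61 and 1.18 CPM at e16.5, 50.3 CPM at P7 and 124 CPM at P60. The log2 ratio from e16.5 to P7 was 1.78 for Pde6c and 4.69 for Pde6h.

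The channel subunits were present from e16.5 on and differed less between ages than the opsins. Cnga3, the alpha subunit (chr1:37214434-37263384, plus strand), was at 14.1, 10.6 and 12.6 CPM at e16.5, 14.8 CPM at P7 and 20.8 CPM at P60, and neither step reached 2-fold. Cngb3, the beta subunit (chr4:19280850-19510623, plus strand), was at 20.9, 20.4 and 19.2 CPM at e16.5, 50.3 CPM at P7 and 37.3 CPM at P60. Arr3, cone arrestin (chrX:100605497-100618493, plus strand), had 3, 0 and 1 counts at e16.5 and then measured 28.7 CPM at P7 and 229 CPM at P60, so that its transcript, unlike those of the channel, was near 0 in the embryo. Thrb (chr14:17660261-18038090, plus strand) was at 86.8, 107 and 101 CPM at e16.5, 61.6 CPM at P7 and 103 CPM at P60. By CPM Thrb was the only member whose P7 level lay below all 3 embryonic libraries, but per length the direction turned: 28.4 FPKM at P7 lay above the 19.4 to 26.7 FPKM of the embryo, and the log2 ratio was -0.67 from CPM and 0.29 from FPKM.

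**Figure D1:**
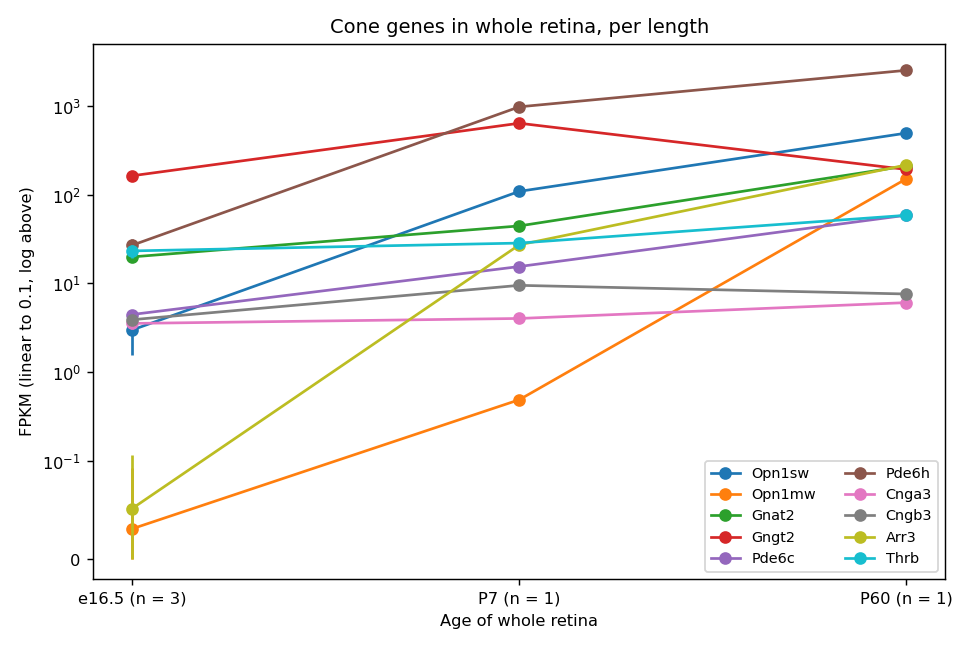
Level of each cone gene in whole retina in FPKM (vertical axis, linear to 0.1 and logarithmic above) at e16.5, P7 and P60 (horizontal axis). Points are the mean of 3 libraries with a line from the lowest to the highest library at e16.5, and the only library at P7 and P60. Pde6h reached 2525 FPKM at P60, on a length of 47.6 nt, Opn1mw was near the bottom until P7, and Gngt2 was the member that was lower at P60 than at P7 by the most.

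Per length, the order of the members in whole retina changed with age. At e16.5 Gngt2 led at 163 ± 12.3 FPKM (SD, n = 3). Pde6h (26.8 ± 4.33 FPKM), Thrb (23.2 ± 3.66 FPKM) and Gnat2 (19.8 ± 1.88 FPKM, each SD, n = 3) followed, and the libraries of neighbours in this order overlapped. The place of Pde6h rests on 32, 34 and 24 counts and on lengths of 46.5 to 57.5 nt. By mean CPM Pde6h stood at 1.47 at e16.5, above only Arr3 and Opn1mw. Pde6c stood at 4.44 ± 0.340 FPKM, above all 3 libraries of Cngb3, while Cngb3, Cnga3 and Opn1sw overlapped each other between 1.54 and 4.41 FPKM. Arr3 and Opn1mw came last. At P60 the order was Pde6h at 2525 FPKM, Opn1sw at 494, Arr3 at 216, Gnat2 at 211, Gngt2 at 192, Opn1mw at 151, Pde6c at 58.6, Thrb at 58.4, Cngb3 at 7.57 and Cnga3 at 6.05 FPKM, with 1 library and no error. The first place of Pde6h rests on a length of 47.6 nt behind its FPKM, which is described further below, and by CPM it stood at 124, below Opn1sw, Arr3, Gnat2 and Pde6c. The channel subunits were the lowest members in the adult retina, and Arr3, near 0 at e16.5, was among the highest.

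Since several members were higher together after e16.5, their start regions were searched for letters read by photoreceptor factors. RefSeq start regions (GRCm38.p6, 250 bases before to 50 after the start) were available for 7 of the 10 genes, in 9 regions; Pde6c, Cngb3 and Gngt2 had none here. TAATCC, the core bound by the homeodomain factors CRX and OTX2, occurred on either strand in 2 of the 9 regions, those of Gnat2 and Thrb, against 7.06% of 32851 regions of the same length. AGGTCA, a core site of nuclear receptors such as thyroid hormone receptors, occurred in 2 of the 9, those of Opn1sw and Thrb, against 16.3%. The 3 regions with a match are shown from 250 bases before the start up to it, 5′ to 3′ on the strand of the gene, with the matched letters in capitals (GGATTA and TGACCT are the matches on the opposite strand). They are from chr3:108092816-108093065 for Gnat2, chr6:29380514-29380763 for Opn1sw and chr14:17660710-17660959 for Thrb.
Gnat2: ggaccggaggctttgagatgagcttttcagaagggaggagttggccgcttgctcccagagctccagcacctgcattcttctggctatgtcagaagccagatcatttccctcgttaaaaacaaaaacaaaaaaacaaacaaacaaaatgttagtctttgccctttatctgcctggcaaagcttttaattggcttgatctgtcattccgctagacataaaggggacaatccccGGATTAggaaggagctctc
Opn1sw: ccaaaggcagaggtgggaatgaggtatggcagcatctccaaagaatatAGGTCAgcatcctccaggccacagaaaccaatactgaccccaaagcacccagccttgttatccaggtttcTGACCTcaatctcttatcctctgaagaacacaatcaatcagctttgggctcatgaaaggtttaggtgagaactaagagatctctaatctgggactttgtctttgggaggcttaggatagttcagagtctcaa
Thrb: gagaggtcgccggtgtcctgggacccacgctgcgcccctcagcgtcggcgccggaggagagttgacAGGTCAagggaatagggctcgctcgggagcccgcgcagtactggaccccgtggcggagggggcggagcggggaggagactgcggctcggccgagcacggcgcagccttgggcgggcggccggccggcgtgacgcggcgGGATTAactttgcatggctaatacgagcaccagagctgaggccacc
The match in Gnat2 began at position -19 from the start, that in Thrb for TAATCC at -46 and for AGGTCA at -184, and the opposite-strand match in Opn1sw at -132. A match is a run of letters and not a measured binding site, and a region without one says only that these letters are not in that window.

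In the sorted microglia, the cone genes were mostly low, uneven between libraries of one age, and below the retina of the same age. Of the members that reached 1 CPM in whole retina of an age, the median member stood at 12.5% to 33.5% of the retina level in the 3 e16.5 libraries (8 members), at 6.19% to 16.7% at P7 (9 members) and at 0.441% to 21.8% at P60 (10 members). The 10 rod phototransduction genes, given for comparison, had a median of 5.27% to 8.21% at P7 and of 1.61% to 9.84% at P60. At e16.5, when rods are few, 6 rod genes reached 1 CPM in whole retina, and their median in microglia was 173% to 544% of it. Among the members so compared, Gngt2 and, by counts, Pde6h departed from the others and are described further below.

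**Figure D2:**
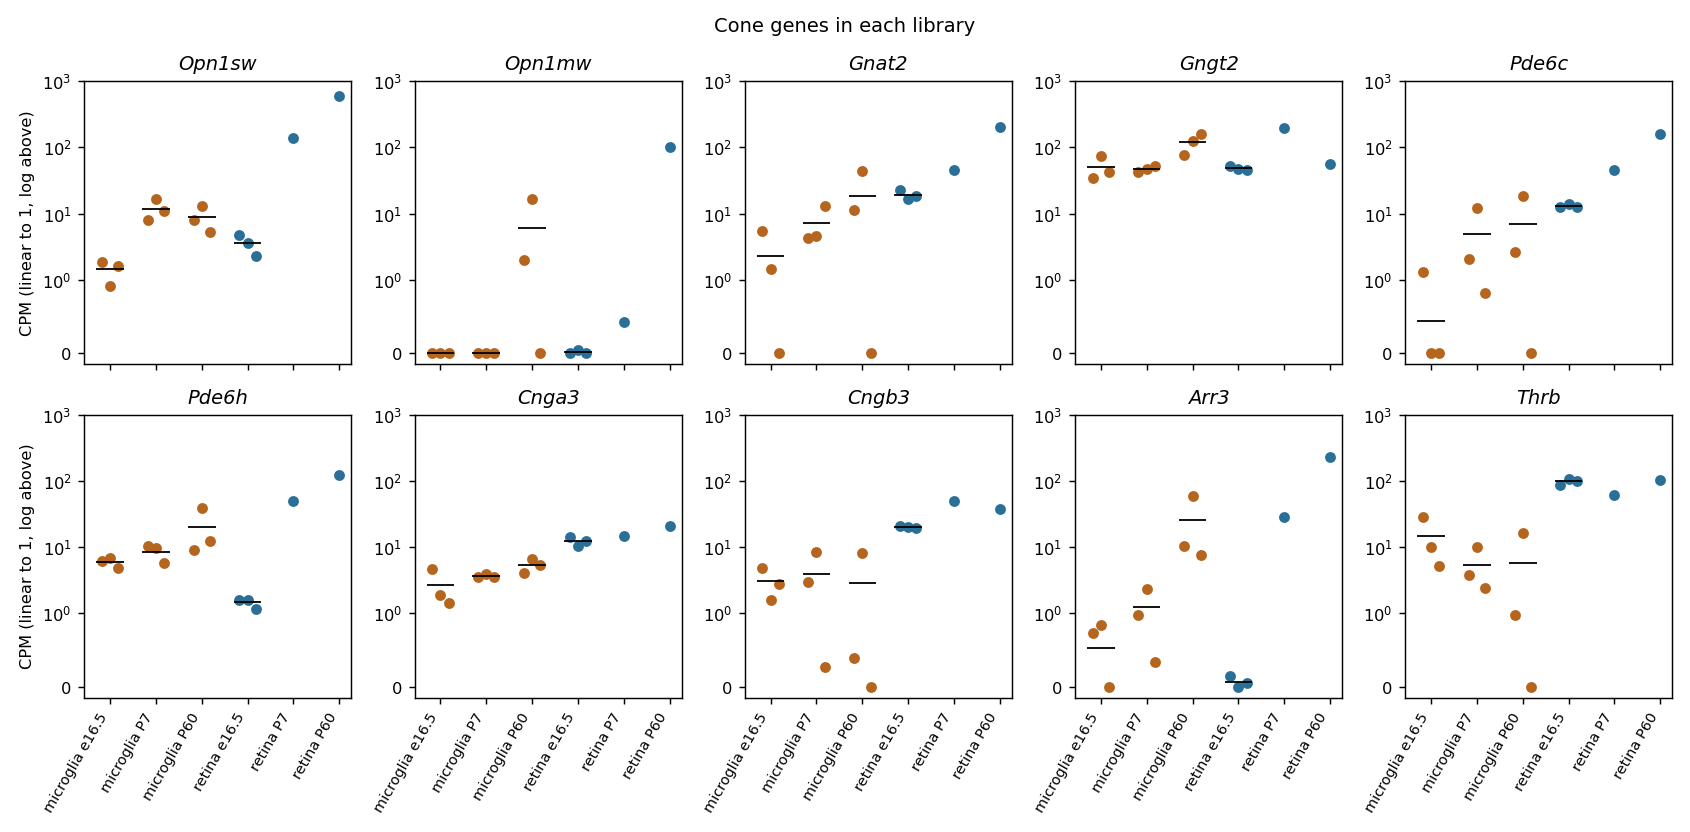
Level of each cone gene in CPM (vertical axes, linear to 1 and logarithmic above) in each of the 14 libraries (points), grouped by microglia (brown) and whole retina (blue) of e16.5, P7 and P60, with the mean of 3 libraries as a line. Most members lie lower in microglia than in whole retina from P7 on, with a wide spread between the 3 microglia libraries of P60. Gngt2 at P60 lies higher in each microglia library than in whole retina.

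Among the opsins, Opn1sw measured 1.88, 0.920 and 1.62 CPM in e16.5 microglia, 7.95, 16.6 and 10.9 CPM at P7 and 8.12, 12.9 and 5.34 CPM at P60. Every P7 and P60 library was above every e16.5 library. As a share of whole retina, Opn1sw stood at 41.7% ± 14.1 in the embryo, 8.50% ± 3.16 on P7 and 1.45% ± 0.631 in adults (SD, n = 3), and the libraries of the 3 ages did not overlap. Opn1mw had 0 counts in all 6 microglia libraries of e16.5 and P7 and 20, 191 and 0 counts at P60.

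Gnat2 was at 5.49, 1.46 and 0 CPM in e16.5 microglia, at 4.30, 4.50 and 12.8 CPM at P7 and at 11.3, 43.4 and 0 CPM at P60. The P60 libraries thus ran from the highest Gnat2 value in microglia to no count at all. Pde6c showed the same kind of spread, with 1.31, 0 and 0 CPM at e16.5, 2.03, 12.0 and 0.819 CPM at P7 and 2.64, 18.1 and 0 CPM at P60. Cngb3 was at 4.92, 1.61 and 2.76 CPM at e16.5, at 3.00, 8.40 and 0.273 CPM at P7 and at 0.391, 8.16 and 0 CPM at P60. Cnga3, its partner in the channel, was at 4.67, 1.92 and 1.41 CPM at e16.5, at 3.49, 3.99 and 3.55 CPM at P7 and at 4.11, 6.70 and 5.43 CPM at P60, with a narrower spread than Cngb3 on P7 and P60 but not in the embryo. As a share of whole retina, Cnga3 stood at 37.6%, 15.4% and 11.4% in the 3 embryonic libraries, at 24.9% ± 1.86 on P7 and at 26.0% ± 6.23 in adults (SD, n = 3), and the ages overlapped.

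Arr3 was at 0.737, 0.844 and 0 CPM in e16.5 microglia, at 0.973, 2.38 and 0.341 CPM at P7 and at 10.6, 58.8 and 7.74 CPM at P60, so that every P60 library exceeded every younger one. Thrb was at 28.8, 10.2 and 5.25 CPM at e16.5 and at 3.81, 10.1 and 2.39 CPM at P7. At P60 it was at 0.978, 16.2 and 0 CPM, with overlap between all ages.

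The libraries of P60 microglia differed from each other in the cone genes as a group. Replicate 2 was the highest of the 3 for 9 of the 10 cone genes and for 10 of the 10 rod genes. Replicate 3 had 0 counts for 5 members, Opn1mw, Gnat2, Pde6c, Cngb3 and Thrb, and the highest level of Gngt2. The summed rod genes were at 311 to 450 CPM in e16.5 microglia, 606 to 709 at P7 and 1108 to 4675 CPM at P60. Whole retina was at 412 to 457, 5815 and 59707 CPM at these ages. The list includes Gnb1, whose log2 ratio in whole retina from e16.5 to P7 was 1.38, the lowest of the 10, against a median of 7.20. The sums were not split by gene, so those of e16.5 are not a measure of rod RNA. All 10 rod genes had counts in every P60 microglia library, and the part of photoreceptor RNA in the sort in any result below was not tested.

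**Figure D3:**
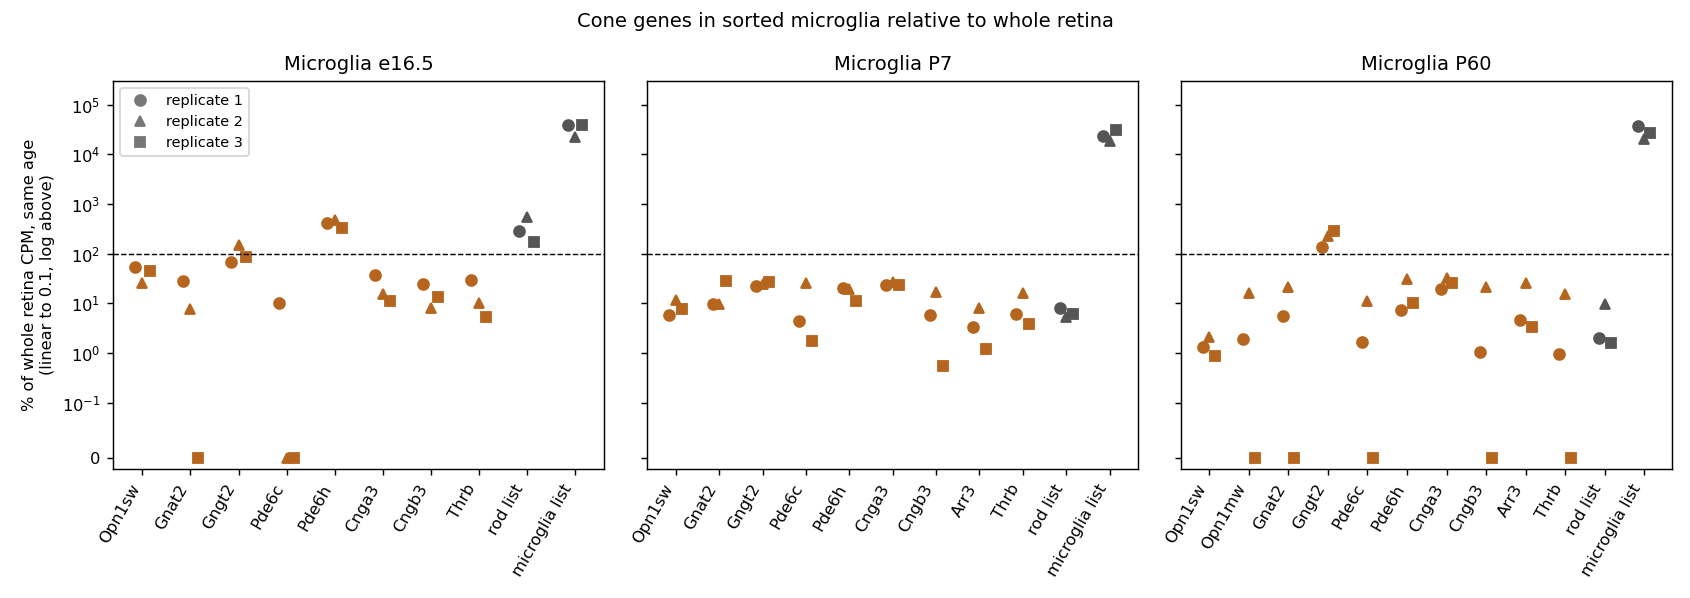
Level of cone genes in each sorted microglia library as a percentage of whole retina of the same age (vertical axis, linear to 0.1 and logarithmic above, dashed line at equal levels), at e16.5, P7 and P60. Symbols are the 3 replicates. The grey symbols are medians over the rod phototransduction and the microglia lists. Most members lie below the line, Gngt2 lies near or above it at e16.5 and P60, Pde6h above it at e16.5 by counts, and replicate 2 of P60 (triangles) is the highest for 9 members.

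Between ages, no cone gene passed the test in microglia. The comparison asked which transcripts of retinal microglia differ between embryo, first postnatal week and adult, and 9 of the 10 members had enough counts to be tested (Opn1mw did not). At an adjusted p under 0.05 in edgeR, 0 of the 9 were called from e16.5 to P7, where 0.2% of the 16019 genes tested were called. From P7 to P60, 0 of 9 were called against 1.35% of all genes, and from e16.5 to P60, 0 of 9 against 3.36%. Before adjustment, 1, 2 and 4 of the 9 had p under 0.05 in these comparisons. The share of all genes under that limit before adjustment is not reported here. The median log2 fold change of the 9 was 0.51, 0.59 and 1.78, against -0.02, 0.07 and 0.06 over all genes tested.

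The members nearest to the threshold were Arr3, Opn1sw and Gngt2. Arr3 had a log2 fold change of 5.61 (SE 1.39, adjusted p = 0.0504) from e16.5 to P60 and of 4.41 (SE 1.30, adjusted p = 0.130) from P7 to P60. Opn1sw had a log2 fold change of 2.97 (SE 0.75, adjusted p = 0.216) from e16.5 to P7 and of 2.58 (SE 0.74, adjusted p = 0.0813) from e16.5 to P60. Gngt2 had a log2 fold change of 1.37 (SE 0.39, adjusted p = 0.122) from P7 to P60. These calls depended on the model and its settings. DESeq2 called Opn1sw from e16.5 to P7, Arr3 and Gngt2 from P7 to P60, and all 3 from e16.5 to P60. By contrast, limma-voom called 0 members in each comparison. In edgeR, Arr3 from e16.5 to P60 also passed with DESeq2's size factors (adjusted p = 0.04996), total counts (0.0490) and the replicate number as a block (0.0190). It did not pass with gene lengths as an offset (0.106) or in any of 9 fits without 1 library. Calls with all 14 libraries are counted further below. Over 18 alternatives, the adjusted p of Arr3 from e16.5 to P60 ranged from 2.55e-05 to 0.174, and that of Opn1sw from e16.5 to P7 from 0.00164 to 0.653. In the authors' deposited table, 1, 2 and 4 members were under 0.05 in the same comparisons (e16.5 to P7, P7 to P60, e16.5 to P60). Of all genes with a value there, 646 of 18106, 2010 of 17304 and 2786 of 18106 were under 0.05.

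The other photoreceptor genes gave more calls in the same libraries. Of the 10 rod phototransduction genes, 0 passed the test from e16.5 to P7, 2 rose from P7 to P60 and 9 from e16.5 to P60. Of all 16019 genes tested, 21, 42 and 138 rose. The log2 fold change of the rod genes was positive for 10, 9 and 10 of 10, with medians of 2.62, 2.08 and 5.46. From e16.5 to P60, Gnat1, the rod transducin alpha subunit, rose by 6.36 (SE 0.65, adjusted p = 0.000780) on the log2 scale. Of 18 genes shared by the phototransduction of rods and cones or by their outer segments, 3 rose from e16.5 to P7, 2 from P7 to P60 and 9 from e16.5 to P60, and 0 fell. The fold change was positive for 16, 17 and 18 of these 18, with medians of 3.14, 2.37 and 5.35. Prph2, a structural protein of outer segment discs, rose by 11.92 (SE 1.24, adjusted p = 0.000780), and Gucy2e, a guanylate cyclase of photoreceptors, by 7.96 (SE 1.08, adjusted p = 0.00411). A difference between these lists and the cone genes was not tested.

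Against whole retina at e16.5, the age at which both kinds of library have replicates, 8 of the 10 cone genes were tested (Arr3 and Opn1mw had too few counts). Of these, 4 were lower and 1 was higher in microglia at an adjusted p under 0.05, where 63.2% of all 16140 genes tested were called, so 5 of 8 is close to the share of all genes. The median log2 fold change of the 8 was -2.09, against -0.13 over all genes tested. The labels name only replicate numbers for the whole retinas, so that the spread behind those p-values may be technical. Arr3 had 9, 11 and 0 counts in microglia (mean 0.527 CPM) and 3, 0 and 1 in whole retina (mean 0.0668 CPM). In the authors' deposited table its log2 ratio of microglia to whole retina was 3.91 (adjusted p = 0.00858). These levels lie near 0, and the difference was not tested in edgeR.

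Thrb (log2 fold change -2.37, SE 0.60, adjusted p = 0.0118) and Cngb3 (-2.34, SE 0.51, adjusted p = 0.00621) were lower in microglia, and their microglia and retina libraries did not overlap. Pde6c (-4.54, SE 1.46, adjusted p = 0.0301), with 16, 0 and 0 counts in microglia against 249, 293 and 252 in whole retina, and Cnga3 (-1.85, SE 0.58, adjusted p = 0.0267) were also lower. Without any 1 of the 3 whole retina libraries, adjusted p of Pde6c was 0.0718 to 0.0807 and that of Cnga3 0.0595 to 0.0833, and without microglia replicate 2 that of Cnga3 was 0.0573, so these calls rest on all 3. In a fit of all 14 libraries the calls of Thrb (adjusted p = 0.0940) and Cngb3 (adjusted p = 0.134) were lost. Over 14 alternatives adjusted p ranged from 0.000195 to 0.0940 for Thrb, from 6.73e-06 to 0.134 for Cngb3, from 0.000596 to 0.0807 for Pde6c and from 0.00278 to 0.0833 for Cnga3. Gnat2 (-2.69, SE 1.28, adjusted p = 0.106), Opn1sw (-0.90, SE 0.52, adjusted p = 0.173) and Gngt2 (0.41, SE 0.32, adjusted p = 0.301) did not pass. Gnat2 passed with DESeq2 (adjusted p = 0.0497) and limma-voom (0.0254), and in edgeR without microglia replicate 1 (0.0372) or 3 (0.0228). Its adjusted p ranged from 0.0228 to 0.208 in 14 alternatives. Opn1sw passed in the edgeR fit of all 14 libraries (-1.20, adjusted p = 0.0475).

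At P7 and P60 whole retina has 1 library, and a test was added after the data were seen, in a fit of all 14 libraries that assumes the lone library to vary like the other groups. At P7, 4 of 10 members were lower in microglia and 0 higher, against 21.1% of 20484 genes called in either direction. These were Opn1sw (log2 fold change -3.57, SE 0.55, adjusted p = 0.000790), Gngt2 (-2.05, SE 0.45, adjusted p = 0.00769), Pde6h (-2.57, SE 0.69, adjusted p = 0.0217) and Arr3 (-4.57, SE 1.32, adjusted p = 0.0295). At P60, 2 of 10 were lower, Opn1sw (-6.17, SE 0.58, adjusted p = 2.22e-05) and Pde6h (-2.69, SE 0.69, adjusted p = 0.0136), against 28.3% of genes. With the gene lengths as an offset, Pde6h was at -9.45 at P7 (adjusted p = 5.23e-05) and -9.46 at P60 (adjusted p = 4.48e-05), and Thrb also passed at P60 (-5.21, adjusted p = 0.0409). By counts, the other 7 members below whole retina at P60 lay between -2.01 for Cnga3 and -4.60 for Pde6c with standard errors of 0.74 to 1.93, so at this spread a difference of that size did not pass.

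The same fit allowed the age changes of microglia and whole retina to be compared. From e16.5 to P7, 0 of 10 members differed in their change, against 0.19% of genes. From P7 to P60 it was 0 of 10, against 0.122%, and from e16.5 to P60 it was 2 of 10, against 2.66%. These were Opn1sw (microglia minus retina -4.97, SE 0.72, adjusted p = 0.00335) and Pde6h (-4.76, SE 0.90, adjusted p = 0.0154), whose change was smaller in microglia than in whole retina. With the gene length of each library as an offset, the differences were -5.27 (adjusted p = 0.0311) and -4.63 (adjusted p = 0.0455).

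Pde6h stood apart because its direction depended on gene length. By counts it was higher in e16.5 microglia, with 6.14, 6.90 and 4.78 CPM against 1.61, 1.61 and 1.18 CPM in whole retina, a log2 fold change of 2.38 (SE 0.46, adjusted p = 0.00369). Per length it was lower, with 1.04, 1.18 and 0.812 FPKM against 31.6, 25.9 and 23.0 FPKM, and the groups overlapped on neither scale. The length behind the deposited FPKM was recovered by dividing counts by FPKM and depth. It was then scaled so that the median gene had 1 length in all libraries. For Pde6h it was 5479 to 6090 nt in the 9 microglia libraries and 46.3 to 57.5 nt in the 5 whole retina libraries. The ratio of these lengths was 121, 127 and 123 at e16.5, P7 and P60, and including Pde6h only 2 of 18388, 2 of 18627 and 1 of 17928 genes lay as far from 1. With the lengths as an offset in edgeR, Pde6h was lower in e16.5 microglia by -4.45 on the log2 scale (adjusted p = 0.000657), and adjusted p was 2.87e-06 to 0.0414 over 14 alternatives, of which the length offset was the one that turned the direction. In the authors' deposited table its log2 ratio of microglia to whole retina was -4.73 in the embryo, -9.33 on P7 and -9.38 in adults.

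The annotation holds Pde6h transcripts of very different length, all longer than the length recovered in whole retina. GENCODE M21 lists 4, of 211 to 5940 nt. Pde6h-202 has 5940 nt in 4 exons, the last of which spans 5673 nt (chr6:136963193-136968865), and Pde6h-203 has 211 nt in 2 exons. A recovered length below the annotation was not particular to Pde6h: for Gngt2 it was 270 to 317 nt, its shortest transcript 498 nt. Recovered lengths are therefore not full transcript lengths, and which transcript lay behind that of Pde6h was not tested. Their scale in nt is also approximate. For Cngb3, whose transcript has 4708 nt, they were 4759 to 4772 nt in e16.5 microglia. All 211 bases of Pde6h-203 are also in Pde6h-202, and Pde6h-203 lacks exon 3 of Pde6h-202, of 41 nt (chr6:136961165-136961205). The stretch around this exon is shown for both, with 20 bases on each side and the exon in capitals, because it is a place where the transcripts differ.
Pde6h-202: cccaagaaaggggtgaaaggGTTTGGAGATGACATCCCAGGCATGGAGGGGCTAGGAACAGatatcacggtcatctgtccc
Pde6h-203: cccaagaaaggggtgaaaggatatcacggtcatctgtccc
The fragments themselves were not used here, so which of these exons they covered was not tested. Of the other members, Cngb3, with 1 annotated transcript, had length ratios of 0.999, 1.00 and 1.00. Thrb came next to Pde6h at P7 and P60, with ratios of 2.38 and 2.81.

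**Figure D4:**
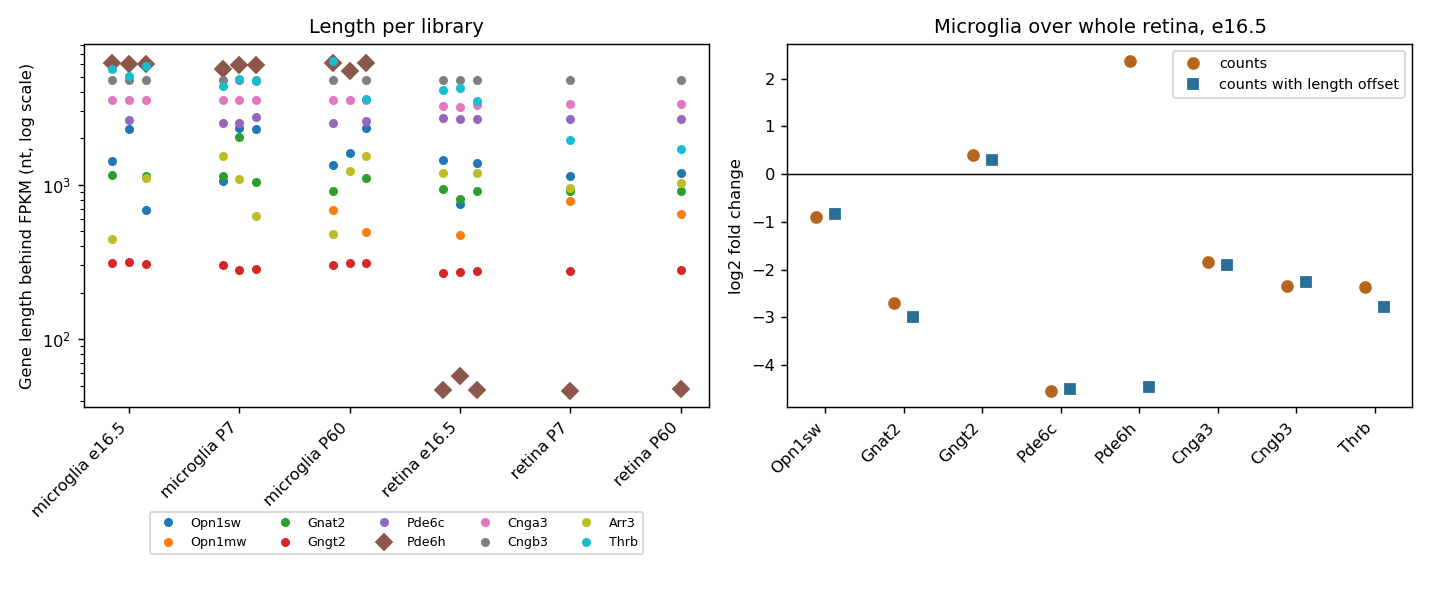
Left, gene length behind the deposited FPKM (vertical axis, nt, log scale, scaled so that the median gene has 1 length in all libraries) of each cone gene in each library with counts, by group. Right, log2 fold change of microglia over whole retina at e16.5 for the 8 members tested, from counts (circles) and with the lengths as an offset (squares). Pde6h (diamonds) lies between 5479 and 6090 nt in microglia and between 46.3 and 57.5 nt in whole retina, and it is the member whose fold change has opposite signs.

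Gngt2 was the cone gene with the highest level per length in microglia at every age. It measured 112, 241 and 142 FPKM at e16.5, 144, 176 and 192 FPKM at P7 and 261, 433 and 561 FPKM at P60, and the next members by mean were Thrb with 2.79, Opn1sw with 6.66 and Arr3 with 26.5 FPKM. In CPM it was at 33.8, 73.5 and 42.1 at e16.5, at 43.0, 47.7 and 52.3 at P7 and at 77.4, 126 and 157 at P60. The P60 libraries lay above all 6 younger ones, although the test did not pass (above). Relative to whole retina, Gngt2 reached 103% ± 43.2 in the embryo, 24.4% ± 2.40 on P7 and 217% ± 72.2 in adults (SD, n = 3), while whole retina went from 48.5 ± 3.53 CPM (SD, n = 3) at e16.5 to 196 and then 55.4 CPM. In P60 replicate 3, where 5 other members had 0 counts, Gngt2 was at 283% of whole retina.

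The exons of Gngt2 overlap those of Abi3, an adaptor protein gene on the opposite strand (chr11:95830074-95842476), by 234 of 1877 exon bases, in 3 of 7 annotated Gngt2 transcripts. Abi3 was at 90.4 to 224 CPM in the 9 microglia libraries and at 1.13 to 4.02 CPM in whole retina. No source used here says whether strand entered the quantification, and without it reads from the shared bases cannot be told apart. Pde6h shares 136 of 7846 exon bases with Arhgdib (95.3 to 762 CPM in microglia, 0.983 to 3.65 CPM in whole retina), and Opn1sw shares 397 of 2557 with Calu (49.5 to 186 CPM and 189 to 354 CPM). The other 7 members share no exon base with another annotated gene.

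Of the 11 other G protein gamma subunit genes, 10 could be tested against whole retina at e16.5, and 4 were called, where 63.2% of all genes were. Gng10 (log2 fold change 1.70, SE 0.28, adjusted p = 0.00169) and Gng12 (2.16, SE 0.22, adjusted p = 0.000226) were higher in microglia while Gng3 (-1.84, SE 0.50, adjusted p = 0.0160) and Gng11 (-5.17, SE 0.98, adjusted p = 0.00337) were lower. Between ages of microglia, 8 of the 11 were tested. The rod subunit Gngt1 was called in 1 comparison, from e16.5 to P60, where it rose by 4.73 (SE 0.80, adjusted p = 0.0102).

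Across the 14 libraries, the genes whose pattern was most like that of a cone gene differed between members. Likeness was the Pearson correlation of log2(CPM + 0.5) over 14 libraries among 11747 genes with a mean of at least 5 CPM. It reflects in part the split between microglia and whole retina and is given as a description. Pde6h was most like Sag (r = 0.976) and Pde6g (0.962), rod arrestin and the rod counterpart of Pde6h, and Arr3 was like Ppp1r16b (0.967), Rdh12 (0.966), a retinol dehydrogenase of photoreceptors, and Pde6a (0.966). The third gene for Opn1sw was Nrl (0.951), the rod transcription factor, after Dgke and Trank1. Thrb was most like Zfp462 (0.982), Pik3r3 (0.973) and Reln (0.972), and Cnga3 like Mier2 (0.981). Gngt2 had the weakest likeness of all members, with Brf1 at 0.920 and Gja1, the third gene, at 0.755.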

How the data were processed

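RNA-seq of 9 sorted microglia and 5 whole retina libraries was used from 1 deposited table of 20902 genes. Per the file headers, the authors gave each library a column of counts and a column of FPKM. The submitters' processing notes name Salmon 0.9.1, DESeq2 1.20.0 and, as build, GRCm38.p6, all without roles, so the deposited values were treated as estimated counts, which were already whole numbers and were rounded before use. The authors' adjusted p-values and log2 ratios, per the file headers, were used only where the authors' deposited table is named. No source used here says whether counting used strand.

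Groups were taken from the labels. The microglia libraries are labelled biological replicates, whereas the whole retinas of e16.5 carry replicate numbers alone. Counts were tested with the quasi-likelihood test of edgeR 4.0.16 (limma 3.58.1, R 4.3.3) after TMM scaling and filterByExpr, with Benjamini-Hochberg adjustment over all genes tested and a threshold of 0.05. The 3 microglia ages shared a fit, and microglia and whole retina of e16.5 were fitted apart. Whole retina ages were compared without a test, as log2 ratios of CPM with 0.5 CPM added, and 2-fold was the size called. Percentages of whole retina used members with at least 1 CPM there. The length behind FPKM is count divided by FPKM and library depth. Printed lengths were then scaled per library so that the median gene had 1 length in all libraries. Tables were handled in Python 3.11.15 with pandas 2.3.3 and numpy 2.4.6. The fits were tested on simulated data with 100 changes of 4-fold and 100 of 8-fold. For microglia P7 against e16.5, 11 and 38 of these were recovered, and 1 of 50 calls was false. For microglia against whole retina at e16.5, 32 and 49 were recovered, and 6 of 87 calls were false. The deposited data gave 10206 calls for microglia against whole retina at e16.5, far more than these 87. The share of changes of these sizes that was missed in the deposited data was not tested.

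All 10 members are named. From other lists at most 4 genes were named, those past the threshold with the largest changes, and all members of the G protein gamma, regulator and thyroid hormone lists could be named. The 3 most alike genes of each member came from genes with a mean of at least 5 CPM. Abi3, Arhgdib and Calu were named after values were seen, because their exons overlap. A few genes that the rule would name are not reported here. Members and lists were chosen with earlier results of these data known. The alternatives were other scalings, no filter, DESeq2 1.42.0, limma-voom, the replicate number as a block, gene lengths as an offset, other sets of libraries and leaving out each replicate. The tests at P7 and P60 against whole retina, the tests of differences between age changes, their length offset and the percentages without Pde6h were added after seeing the data. Positions and transcripts are from GENCODE M21 and start regions from RefSeq.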

Additional observations from a re-analysis of the deposited data

Results flagged for a closer look

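The age change of 3 cone genes differed in direction or size between microglia and whole retina. Gngt2 was higher at P60 than at P7 in microglia and lower in whole retina, with a difference of 3.10 on the log2 scale (microglia minus retina, SE 0.72). All microglia libraries of P60 lay above all of P7, and the single whole retina of P60 lay below that of P7, but with an adjusted p of 0.207 in edgeR the difference did not pass the test. The log2 difference from e16.5 to P60 was -4.97 for Opn1sw (adjusted p = 0.00335 in edgeR) and -4.76 for Pde6h (adjusted p = 0.0154). Both genes were higher at P60 than at e16.5 in every microglia library and in whole retina, by less in microglia. All 3 values rest on 1 whole retina library at P60, and that of Gngt2 also on 1 at P7.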

How the results depend on the processing

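Of the alternatives for single members, 679 kept direction and side of the threshold, 28 moved, 17 passed the threshold anew, 9 lost it and 25 changed sign. Of those for counts and medians, 161 stayed within the allowed range and 46 moved. The cause of these shifts was not tested. Between e16.5 and P7, the 32 genes called became 328 with DESeq2, 60 with limma-voom, 1 with gene lengths as offset, 100 with all 14 libraries and 143 with only the 2 ages. Leaving out 1 replicate gave 0 to 61. Members called went from 0 to 1 with DESeq2 and with all 14 libraries. Between P7 and P60, the 217 genes became 1249 with DESeq2, 75 with lengths, 599 with all 14 libraries, 82 with only the 2 ages and 41 to 217 without 1 replicate, and DESeq2 called 2 members. Between e16.5 and P60, the 538 genes became 1902 with DESeq2, 262 with lengths, 1177 with all 14 libraries, 227 with only the 2 ages and 174 to 530 without 1 replicate. Members called there were 1 with DESeq2's size factors, 1 with total counts, 3 with DESeq2 and 2 with all 14 libraries. With DESeq2's size factors and with total counts, the genes called there stayed within the allowed range. Against whole retina at e16.5, 10206 genes were called, and 8604 to 12088 when 1 replicate was left out. Those fits called 3 to 7 members, with 3 where a whole retina was left out.

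Same-numbered libraries correlated by -0.029 to 0.247 over 18 pairs, and among microglia alone by 0.025 to 0.247 over 9 pairs. In both cases 5 pairs were above 0.1, so the numbers were not taken to pair the samples. Each microglia library correlated best with its own number in each other age, except e16.5 replicate 2 with P60 (0.041, against 0.049 with replicate 3), a hint from the data and not from the design. With the replicate block, 44, 367 and 757 genes were called between the microglia ages, and members called were 0, 0 and 1. This 1 was Arr3 (5.66, adjusted p = 0.0190), where 18 alternatives gave 2.55e-05 to 0.174. Against whole retina at e16.5 the block called 5 members, and the genes called stayed within the allowed range of the 10206 above.

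Among the tested fold changes, signs changed only in comparisons that the member had not passed, except for Pde6h against whole retina at e16.5. In whole retina, without a test, Thrb at P7 against e16.5 went from -0.67 to 0.29 with FPKM. From e16.5 to P7, Cngb3 turned to -0.65 with limma-voom, -1.46 with the replicate block and -0.96 without P7 replicate 2, and Gngt2 to 0.03 with lengths and 0.30 without e16.5 replicate 2. From P7 to P60, limma-voom turned Gnat2 to -1.18, Pde6c to -0.95 and Thrb to -2.22, the replicate block to -0.66, -0.67 and -1.27, and leaving out P60 replicate 2 to -0.31, -1.90 and -3.45. Thrb also turned without P7 replicate 1 (-0.10) or 3 (-0.25), and Cngb3 without P7 replicate 2 (0.85), P60 replicate 1 (0.09) or 3 (0.16). From e16.5 to P60, Cngb3 turned to 0.11 with total counts, to 0.40 without e16.5 replicate 1 or P60 replicate 1, and to 0.47 without P60 replicate 3. Against whole retina, Pde6h turned to -4.45 with lengths and Gngt2 to -0.10 without microglia replicate 2. Over all single left-out replicates, Cngb3 ranged from -0.96 to 0.86 (e16.5 to P7), -4.26 to 0.85 (P7 to P60) and -3.94 to 0.47 (e16.5 to P60). From P7 to P60 the range was -0.31 to 2.08 for Gnat2, -1.90 to 2.32 for Pde6c and -3.45 to 0.93 for Thrb. Gngt2 ranged from -0.29 to 0.30 (e16.5 to P7) and from -0.10 to 0.52 (against whole retina). The low counts of most members in microglia limit what could be detected there.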

Other observations

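Of 9 genes of thyroid hormone handling, the pathway of Thrb, 2 were at least 2-fold higher and 1 lower in whole retina at P7 than at e16.5. Of all genes, 14.8% were higher and 10.6% lower. At P60 against P7, 1 of the 9 was higher and 2 were lower, against 8.14% and 8.42% of all genes. The median log2 ratios of the 9 were 0.33 and -0.42, against 0.05 and -0.03 over all genes. Dio2, which activates thyroid hormone, was at 0.147 ± 0.00452 CPM (SD, n = 3) at e16.5, 2.78 CPM at P7 and 138 CPM at P60. Dio3, which inactivates it, was at 38.9 ± 5.86 CPM (SD, n = 3) at e16.5, 0.391 CPM at P7 and 0.595 CPM at P60. Rxrg, a partner receptor known from cones, was at 34.5 ± 3.29 CPM (SD, n = 3), 20.6 CPM and 7.35 CPM. Of 8 thyroid hormone genes tested at e16.5 in edgeR, 4 were lower in microglia than in whole retina and 2 higher, where 63.2% of all genes were called. Thra (log2 fold change -6.22, SE 0.84, adjusted p = 0.000825) and Rxrg (-5.98, SE 1.14, adjusted p = 0.00338) were among those lower. Between microglia ages, 0 of 7 passed from e16.5 to P7, from P7 to P60 or from e16.5 to P60, where 0.2%, 1.35% and 3.36% of all genes did.

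Among 12 photoreceptor regulators, Crx, a homeodomain factor of rods and cones, measured 153 ± 7.19 CPM (SD, n = 3) in the embryonic retina, 1481 CPM on P7 and 1223 CPM in adults. Nrl, the rod factor, was at 5.93 ± 1.12 CPM (SD, n = 3), 1098 CPM and 1806 CPM. In microglia from e16.5 to P60, Nrl rose by 4.07 (SE 0.95, adjusted p = 0.0406) on the log2 scale in edgeR. Onecut1 changed by -5.01 (SE 0.82, adjusted p = 0.00848), so that 1 of 12 passed in each direction. Of all 16019 genes tested, 138 rose and 400 fell.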
